A study of Mus musculus with 9 samples.

Results

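The unfolded protein response and the integrated stress response were followed through 10 genes in lungs injured by mechanical ventilation (ventilator-induced lung injury, VILI). The genes were listed by name, from their place in the pathways, by a rule that uses no values but was written with earlier results of these data known: Atf4, Ddit3, Xbp1, Trib3, Chac1, Asns, Ppp1r15a, Hspa5, Dnajb9 and Herpud1. They are 10 of the 27203 genes of the expression table and hold 22 of its 60108 transcript rows. Whole lung was sampled from 9 male C57BL/6 mice of 6 to 8 weeks, 3 mice in each of 3 groups. Control mice were intubated and not ventilated, VILI 0 hours mice were killed at the end of 4 hours of ventilation with tidal volumes of 20 ml/kg, and VILI 6 hours mice 6 hours after it. Ventilation was run under anesthesia and muscle relaxation on a heating pad, which cannot be told apart from stretch in a comparison with control. Each library was 1 mouse, and the lung identity held, since the surfactant gene Sftpc, the defining marker of alveolar type 2 cells, lay between 9684 and 12500 FPKM in the 9 libraries.

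When unfolded proteins collect in the endoplasmic reticulum (ER), 3 sensors respond. PERK phosphorylates the translation factor eIF2α, which slows protein synthesis and favors translation of the transcription factor ATF4. IRE1 splices the Xbp1 mRNA into the form that encodes an active transcription factor, and ATF6 is cut in the Golgi to release another. Other kinases phosphorylate eIF2α upon amino acid shortage, viral RNA or heme shortage, and the shared arm downstream is the integrated stress response. ATF4 induces amino acid synthesis and transport genes together with Ddit3 (CHOP), while ATF6 and XBP1 induce chaperones and degradation factors. In the lung, alveolar type 2 cells and plasma cells are secretory cells that rely on these pathways. ATF4, XBP1 and eIF2α are controlled at translation, splicing and phosphorylation, none of which the RNA levels used here measure.

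Known response elements were looked for in the 250 bases before the RefSeq transcription start of each gene (GRCm38.p6), because they tell the ATF6/XBP1 arm from the ATF4 arm. Both strands were searched for the ER stress response element ERSE (CCAAT and CCACG 9 bases apart), for the XBP1 and ATF6 element UPRE (TGACGTGG), for the C/EBP-ATF element CARE (TTGCATCA) and, added after the data had been seen, for ERSE-II (ATTGG and CCACG 1 base apart). Of 32851 promoters, 37 held ERSE (0.113%), 185 held UPRE (0.563%), 260 held CARE (0.791%) and 10 held ERSE-II (0.0304%). All 10 genes had a promoter entry, and 3 of them held a match. The matched stretches are shown on the + strand, with the matched letters in capitals.
Hspa5: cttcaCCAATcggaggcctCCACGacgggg
Herpud1: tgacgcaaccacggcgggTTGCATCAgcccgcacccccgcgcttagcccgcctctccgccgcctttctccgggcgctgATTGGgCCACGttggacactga
Chac1: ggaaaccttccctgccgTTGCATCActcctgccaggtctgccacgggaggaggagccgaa
The Hspa5 stretch is chr2:34772020-34772049, 70 to 41 bases before the start, and holds ERSE from base 65 before the start. The Herpud1 stretch is chr8:94386299-94386398, 130 to 31 bases before the start, and holds CARE from base 112 and ERSE-II from base 52. The Chac1 stretch is chr2:119351032-119351091, 210 to 151 bases before the start, and holds CARE from base 193. For the other 7 genes these letters did not occur in this window, which says nothing of elements elsewhere or with other letters.

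The values are FPKM (fragments normalized to transcript length and library size), summed over the rows of a gene, and differences are log2 fold changes on the log2(FPKM + 0.1) scale, which understates changes of low genes. They were tested with limma over 19378 genes with a mean of at least 0.1 FPKM. A gene was called where P was under 0.05 before adjustment, and the Benjamini-Hochberg adjusted p is given beside it. Read depth is not part of the table, whose column sums lay between 366360 and 388459 FPKM. Mapped reads per library are listed in the paper's supplement but were not used, so the spread among the 3 mice is the only measure of precision here. With 3 against 3 mice an exact permutation test cannot go below p = 0.1. The library VILI 6 hours replicate 1 stood apart: of 14108 genes with a mean of at least 1 FPKM, 3069 (21.8%) were highest there, and leaving it out raised the genes with an adjusted p under 0.05 at VILI 6 hours, against control, from 136 to 4512. In the same group, replicate 3 was the lowest of the 9 libraries for 5028 of these genes (35.6%) and the highest for 13.9%, so that leaving out replicate 1 leaves a group with another library at an extreme. Many of the values of VILI 6 hours are therefore also given without replicate 1 or without replicate 3. The median over all genes was −0.07 at 0 hours and −0.09 at 6 hours against control, and 0.05 and 0.04 after median-centring of the libraries.

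In control lungs the chaperone Hspa5 was the most abundant of the 10 genes (117 FPKM), followed by Xbp1 (72.8), Herpud1 (58.8), Atf4 (49.8), Dnajb9 (28.1), Ddit3 (12.2), Ppp1r15a (9.94), Asns (6.25), Chac1 (2.20) and Trib3 (1.92). The ranges of the 3 control mice overlapped only between Chac1 and Trib3.

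Immediately after ventilation, 5 of the 10 genes were called, Herpud1, Ppp1r15a, Trib3, Atf4 and Dnajb9, and all 5 were higher than in control. Over all genes tested, 16.2% were called in this comparison, 6.81% as higher. After 6 hours, Xbp1, Asns and Atf4 were higher and Ddit3 lower than in control, 4 of 10 beside 20.4% of all genes. Between the times, Xbp1 and Asns were higher and Dnajb9 lower at 6 hours, 3 of 10 beside 10% of all genes. At an adjusted p under 0.05, 0 of the 10 genes were called at 0 hours, at 6 hours or between the times, where 0.284%, 0.702% and 0% of all genes were. The median log2 fold change of the 10 genes was 0.19, 0.35 and −0.11 in the 3 comparisons.

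**Figure D1:**
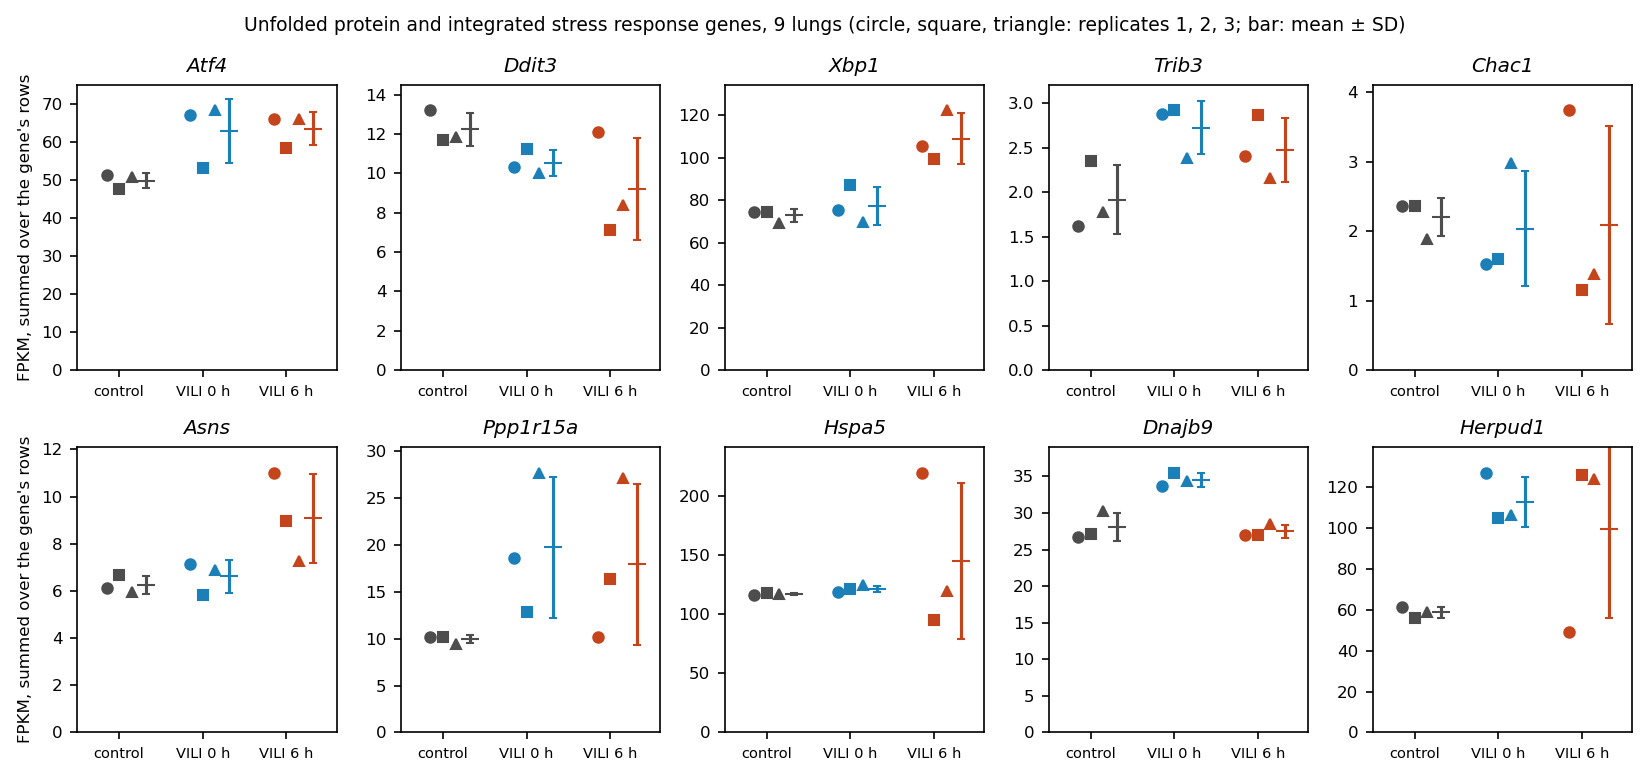
FPKM of the 10 genes (linear axes from 0, summed over transcript rows) in each mouse of the 3 groups, with the group mean ± SD beside the points. Herpud1 lay between 105 and 127 FPKM in the VILI 0 hours mice, above every control mouse, and VILI 6 hours replicate 1 is the circle at 220 FPKM for Hspa5.

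Of the transcription factors, Atf4 (ENSMUSG00000042406, chr15:80255184-80257541, + strand) encodes the effector of the integrated stress response. It was at 51.4, 47.5 and 50.6 FPKM in the control mice, with 66.9, 53.1 and 68.2 FPKM directly after ventilation and 65.9, 58.4 and 65.9 FPKM 6 hours later. All 6 ventilated mice lay above all 3 control mice. The log2 fold change was 0.32 (SE 0.11, limma adjusted p = 0.208) at VILI 0 hours and 0.35 (SE 0.11, adjusted p = 0.15) at VILI 6 hours, where it was 0.32 without replicate 1. The call at VILI 0 hours was lost without control replicate 2 (log2 fold change 0.29), VILI 0 hours replicate 1 (0.27) or VILI 0 hours replicate 3 (0.26). The times differed by 0.02 (95% interval −0.23 to 0.28).

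Ddit3 (ENSMUSG00000025408, chr10:127290774-127296288, + strand) encodes CHOP, a pro-apoptotic transcription factor and a classical mark of a strong unfolded protein response. It was at 13.2, 11.7 and 11.8 FPKM in the control mice, with 10.3, 11.3 and 10 FPKM directly after ventilation and 12.1, 7.12 and 8.41 FPKM 6 hours later. No ventilated mouse exceeded the highest control mouse, and all 3 VILI 0 hours mice lay below the control range, as did replicates 2 and 3 of VILI 6 hours. The difference was −0.22 (SE 0.18, limma adjusted p = 0.588) at VILI 0 hours and −0.44 (SE 0.18, adjusted p = 0.213) at VILI 6 hours. With replicate 1 of that group left out the latter was −0.65 (adjusted p = 0.00765), and the lower value at VILI 6 hours than at VILI 0 hours, −0.22 and not called with all libraries, was −0.44 and called (adjusted p = 0.0909). The call was lost with median-centred libraries (−0.31), without any single control mouse (−0.38 to −0.47), without VILI 6 hours replicate 2 (−0.27) or 3 (−0.39), and in its most abundant row alone (−0.25). It was also lost at the same value without a trend in the variances or with only the 6 libraries compared, and in the latter fit the lower value at VILI 0 hours was called. Mars and Gm4189 overlap Ddit3 on the opposite strand, and a second gene ID named Ddit3 overlaps it on the same strand with 0 rows in the table.

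Xbp1 (ENSMUSG00000020484, chr11:5520659-5525893, + strand) encodes the transcription factor that IRE1 activates by splicing. It was at 74.6, 74.3 and 69.4 FPKM in the control mice, with 75.3, 87.2 and 69.7 FPKM directly after ventilation and 105, 99.3 and 122 FPKM 6 hours later. The 3 VILI 6 hours mice lay above all other 6 mice, replicate 1 included. The log2 fold change was 0.58 (SE 0.11, limma adjusted p = 0.0587) against control and 0.49 (SE 0.11, adjusted p = 0.235) against VILI 0 hours, while VILI 0 hours differed from control by 0.08 (95% interval −0.17 to 0.34). Both calls held in every fit that left out 1 library, with differences from control of 0.49 to 0.64. Without VILI 6 hours replicate 1, the adjusted p against control was 0.0117. The shortest intron among the 4 annotated Xbp1 transcripts is 300 bases, so the short stretch that IRE1 removes is annotated in none of them and the active spliced form cannot be told apart here.

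Among the targets of ATF4 and CHOP, Trib3 (ENSMUSG00000032715, chr2:152337422-152344032, − strand) encodes a pseudokinase that restrains the response. It was at 1.62, 2.35 and 1.78 FPKM in the control mice, with 2.87, 2.92 and 2.38 FPKM directly after ventilation and 2.40, 2.86 and 2.16 FPKM 6 hours later. The VILI 0 hours mice lay above control, by a narrow margin over control replicate 2, and the VILI 6 hours mice overlapped control. The differences were 0.50 (SE 0.20, limma adjusted p = 0.257) and 0.36 (SE 0.20, adjusted p = 0.318), the latter 0.38 without VILI 6 hours replicate 1. The first call was lost without control replicate 1 (0.39) or 3 (0.46), or without VILI 0 hours replicate 1 (0.46) or 2 (0.45). Trib3 was also called at VILI 6 hours with median-centred libraries (0.49) or without control replicate 2 (0.51).

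Ppp1r15a (ENSMUSG00000040435, chr7:45522916-45526268, − strand) encodes GADD34, the inducible phosphatase subunit that reverses eIF2α phosphorylation. It was at 10.2, 10.2 and 9.42 FPKM in the control mice, with 18.6, 12.9 and 27.7 FPKM directly after ventilation and 10.2, 16.3 and 27.2 FPKM 6 hours later. All 3 VILI 0 hours mice were above control, whereas VILI 6 hours replicate 1 was level with the highest control mouse and the other two were above it. The mean at VILI 0 hours was 1.98 times that of control, a log2 fold change of 0.91 (SE 0.35, limma adjusted p = 0.243), and the spread within that group was wide (SD 7.48 FPKM, n = 3). This call was lost without any single control mouse (0.87 to 0.93) or without VILI 0 hours replicate 1 (0.92) or 3 (0.63). At VILI 6 hours the difference was 0.73 (SE 0.35, adjusted p = 0.266), and 1.08 (adjusted p = 0.034) without replicate 1 of that group. Without replicate 3, its highest library, it was 0.37 and not called. At the value of 0.73 it was called at VILI 6 hours without VILI 0 hours replicate 2 or 3, which enter through the shared spread. Tulp2 overlaps Ppp1r15a on the opposite strand.

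Asns (ENSMUSG00000029752, chr6:7675169-7693254, − strand) encodes asparagine synthetase, an amino acid response gene. It was at 6.13, 6.69 and 5.93 FPKM in the control mice, with 7.14, 5.82 and 6.89 FPKM directly after ventilation and 11, 8.95 and 7.26 FPKM 6 hours later. Only the VILI 6 hours mice cleared the control range in all 3 libraries, with replicate 1 highest. The difference was 0.51 (SE 0.16, limma adjusted p = 0.145) against control, and the call was lost when the most abundant row alone was used (0.47). It was 0.36 and still called when VILI 6 hours replicate 1 was left out. Against VILI 0 hours it was 0.44 (SE 0.16, adjusted p = 0.425). The latter call was lost without VILI 6 hours replicate 1 (0.29) or 2 (0.43), without VILI 0 hours replicate 2 (0.35), in the most abundant row alone (0.37) and, at the same value, in a fit of the 6 libraries compared.

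Chac1 (ENSMUSG00000027313, chr2:119351229-119354381, + strand) encodes a glutathione-degrading enzyme. It was at 2.36, 2.36 and 1.88 FPKM in the control mice, with 1.53, 1.60 and 2.99 FPKM directly after ventilation and 3.74, 1.15 and 1.38 FPKM 6 hours later. In each ventilated group 1 mouse was above and 2 were below the control range. The differences were −0.17 (95% interval −1.10 to 0.77) and −0.25 (−1.18 to 0.68), neither of which passed the test. Without VILI 6 hours replicate 1, the difference from control at VILI 6 hours was −0.75 and was called (limma adjusted p = 0.0916). Without replicate 2 or 3 it was 0.06 or −0.06 and not called.

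The last group holds ER chaperones and degradation factors. Herpud1 (ENSMUSG00000031770, chr8:94386438-94395377, + strand) encodes an ER membrane protein of the degradation machinery, and its promoter carries the CARE and ERSE-II matches printed above. It was at 61.4, 56.0 and 59.2 FPKM in the control mice, with 127, 105 and 107 FPKM directly after ventilation and 49.0, 126 and 124 FPKM 6 hours later. The VILI 0 hours mice and replicates 2 and 3 of VILI 6 hours lay far above control, and VILI 6 hours replicate 1 lay below it. The mean at VILI 0 hours was 1.92 times that of control, the log2 fold change 0.93 (SE 0.31, limma adjusted p = 0.192), and the call was lost in its most abundant row alone (0.88). At VILI 6 hours the difference was 0.64 (SE 0.31, adjusted p = 0.272), and 1.09 (SE 0.10, adjusted p = 0.000523) without replicate 1. Without replicate 2 or 3 it was 0.41 or 0.42 and not called. VILI 6 hours replicate 1 also widened the shared spread: without it, the adjusted p at VILI 0 hours was 0.00125 at the same fold change. Gm15890 overlaps Herpud1 on the opposite strand.

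Dnajb9 (ENSMUSG00000014905, chr12:44205559-44210326, − strand) encodes ERdj4, a co-chaperone of BiP and a target of XBP1. It was at 26.8, 27.2 and 30.3 FPKM in the control mice, with 33.7, 35.5 and 34.4 FPKM directly after ventilation and 27.0, 27.0 and 28.5 FPKM 6 hours later. The 3 VILI 0 hours mice lay above all other 6 mice, and the VILI 6 hours mice were within the control range. The difference from control was 0.30 (SE 0.09, limma adjusted p = 0.142) at VILI 0 hours and −0.03 (95% interval −0.22 to 0.17) at VILI 6 hours. The fall between the times, −0.33 (SE 0.09, adjusted p = 0.284), and the rise at VILI 0 hours were called in every fit that left out 1 library.

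Hspa5 (ENSMUSG00000026864, chr2:34771970-34777547, + strand) encodes BiP, the main ER chaperone, and holds the ERSE match printed above. It was at 116, 118 and 117 FPKM in the control mice, with 119, 122 and 124 FPKM directly after ventilation and 220, 95.5 and 120 FPKM 6 hours later. Apart from VILI 6 hours replicate 1, which was far above the rest, and replicate 2 of that group, which was below, the libraries lay within a narrow range, with the 3 VILI 0 hours mice just above control. The difference from control was 0.06 (95% interval −0.49 to 0.61) at VILI 0 hours and 0.22 (−0.33 to 0.77) at VILI 6 hours. Without VILI 6 hours replicate 1 these were 0.06 (−0.15 to 0.26) and −0.13 (−0.36 to 0.10). Without replicate 2 or 3 the difference at VILI 6 hours was 0.47 or 0.31 and not called.

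**Figure D2:**
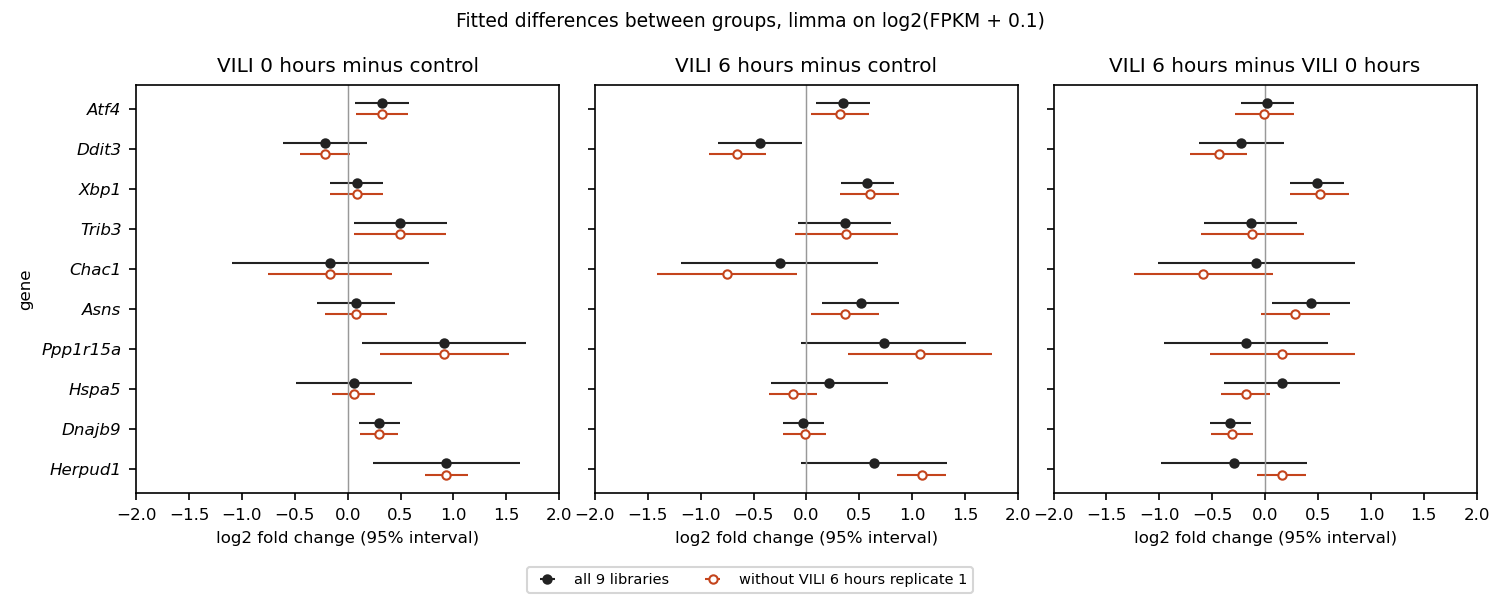
Fitted log2 fold changes of the 10 genes (points) with 95% intervals (bars) in the 3 comparisons, with all 9 libraries (filled) and without VILI 6 hours replicate 1 (open). Dropping that library moves Herpud1 at VILI 6 hours from 0.64 to 1.09 and Hspa5 from 0.22 to −0.13, while Xbp1 stays at 0.58 and 0.60.

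Without VILI 6 hours replicate 1, 7 of the 10 genes were called in VILI 6 hours vs control, beside 38.8% of all genes. Of these, 5 were higher (Xbp1, Herpud1, Ppp1r15a, Asns and Atf4) and 2 lower (Ddit3 and Chac1), beside 12.8% and 26% of all genes. An adjusted p under 0.05 was reached by 4, beside 23.3% of all genes. When replicate 3 was left out instead, 3 of the 10 were higher and 0 lower, beside 6.63% and 7.48%. In that fit 0 had an adjusted p under 0.05, so these counts depend on which library is left out. Across the 9 libraries, the highest Pearson correlation between 2 members on the log2 scale was that of Ppp1r15a with Herpud1 (r = 0.82), and the lowest that of Ddit3 with Herpud1 (r = −0.77). These are descriptions over 9 libraries that share their group differences. Among 14107 genes with a mean of at least 1 FPKM, those most like Hspa5 were Nudc (r = 0.99), Mcrip2 (0.96), Psmb5 (0.95), Ptges3 (0.95) and Dnajb2 (0.94). Each was highest in VILI 6 hours replicate 1, where Hspa5 itself peaked, so the choice by correlation largely fixed this. Those most like Ddit3 were Ptpra (r = 0.99), Exoc2 (0.98), Gm48604 (0.97), Cx3cl1 (0.97) and Mmgt2 (0.97).

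The 22 rows of the members carry no transcript IDs, so they are named by their order within the gene. Of the 22, 17 passed the filter on low values, and 1 of the others, the middle of 3 Herpud1 rows, was at 0 in every library. In VILI 0 hours vs control 5 of 17 rows were called, all higher, beside 11% of all rows. In VILI 6 hours vs control it was 6 of 17 (5 higher and 1 lower) beside 13.2%, and between the times 5 of 17 (3 higher and 2 lower) beside 7.4%. The 3 Xbp1 rows were all higher at VILI 6 hours than in control, by 0.54, 0.59 and 0.41, and the second row held between 81.5% and 86.4% of the Xbp1 signal in each library.

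The second Ddit3 row was at 1.69, 1.20 and 1.55 FPKM in the control mice, with 1.48, 1.49 and 2.03 FPKM directly after ventilation, and was listed at 0 in all 3 VILI 6 hours libraries. It held 10.3% to 20.3% of the Ddit3 signal in the other 6 libraries. With all 9 libraries it was the only member row with an adjusted p under 0.05, at 0.0035 against control and 0.00403 against VILI 0 hours by limma. When VILI 6 hours replicate 1 was left out, 5 member rows had one in VILI 6 hours vs control, among them the first Herpud1 row (1.18), beside 5.6% of all rows, and 2 in VILI 0 hours vs control, beside 1.04%. Of 16454 rows with at least 1 FPKM in each control and VILI 0 hours library, 3 were listed at 0 in every VILI 6 hours library, and the table does not show whether such a 0 is an absence or a failed estimate. The first Ddit3 row was at 12.1, 7.12 and 8.41 FPKM at VILI 6 hours beside 11.5, 10.5 and 10.3 FPKM in control, a difference of −0.25 (95% interval −0.70 to 0.19), and without replicate 1 of that group it was −0.47 and called.

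Herpud1 was split between its first and last rows. The last was at 19.0, 15.6 and 17.8 FPKM in the control mice, with 36.7, 31.6 and 40.1 FPKM directly after ventilation and 19.6, 33.3 and 28.9 FPKM 6 hours later, so that even VILI 6 hours replicate 1 lay above control. It was 1.04 higher at VILI 0 hours (SE 0.20, limma adjusted p = 0.161). In the first row VILI 6 hours replicate 1 was at 29.5 FPKM, below the control range of 40.4 to 42.4 FPKM.

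**Figure D3:**
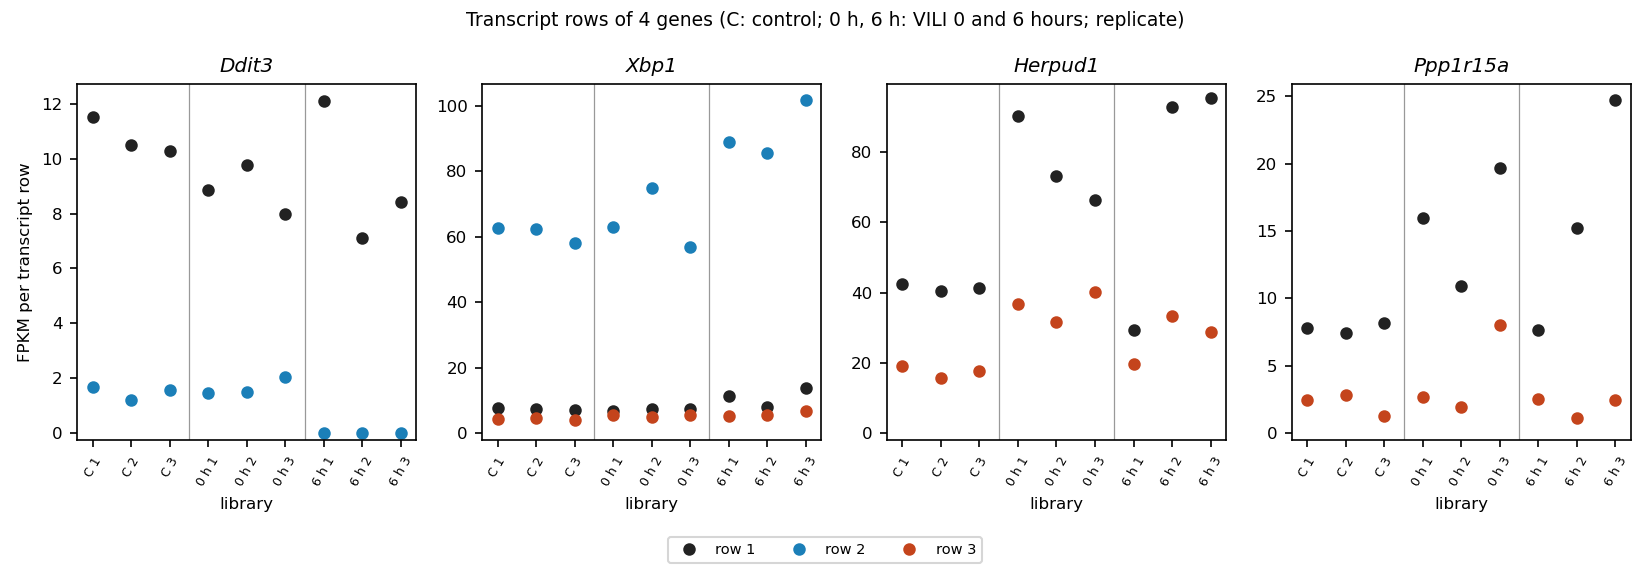
FPKM of single transcript rows (colors) of Ddit3, Xbp1, Herpud1 and Ppp1r15a in the 9 libraries. The second Ddit3 row is at 0 in the 3 VILI 6 hours libraries, and VILI 6 hours replicate 1 drops to 29.5 FPKM in the first Herpud1 row.

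Other genes of the pathways were taken from lists. Of 28 further ATF4 and CHOP targets and partners, 27 were tested (Fgf21 was listed at 0), and 11 were higher and 0 lower than in control directly after ventilation, beside 6.81% of all genes higher, with a median change of 0.23 on the log2 scale. After 6 hours 14 were higher and 0 lower, beside 8.17% of all genes higher, with a median of 0.51. None of them had an adjusted p under 0.05 with all libraries. Without VILI 6 hours replicate 1, 8 had one at VILI 0 hours, beside 6.93% of all genes, and 10 at VILI 6 hours, beside 23.3%. In that fit 16 were called higher and 2 lower at VILI 6 hours, beside 12.8% and 26% of all genes. When replicate 3 was left out instead, 8 were higher and 0 lower, beside 6.63% and 7.48%. Ddit4, an inhibitor of mTORC1, was at 6.75, 6.47 and 6.53 FPKM in the control mice, with 31.5, 26.9 and 95.3 FPKM directly after ventilation and 7.70, 53.4 and 68.9 FPKM 6 hours later. Its log2 fold change was the highest of the list at VILI 0 hours (2.70, SE 0.75, limma adjusted p = 0.133), and VILI 6 hours replicate 1 again lay near control. At VILI 6 hours it was 2.20 (adjusted p = 0.165), and 3.18 (adjusted p = 0.00268) without replicate 1. It was 1.61 and not called without replicate 3.

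Slc7a11, the cystine transporter, was at 0.286, 1.49 and 0.427 FPKM in the control mice, with 2.59, 1.12 and 2.03 FPKM directly after ventilation and 1.24, 2.45 and 29.3 FPKM 6 hours later. Its value at VILI 6 hours was the highest of the list (2.76, SE 1.01, limma adjusted p = 0.181), and replicate 3 was far above the others. Without replicate 1 it was 3.66 (adjusted p = 0.0266). Without replicate 3 it was 1.43, below Ddit4. The amino acid transporter Slc7a5 was called higher at both times (1.18 and 1.41), as was the transcription factor Cebpb (0.97 and 1.18). Their changes at VILI 6 hours were 1.90 and 1.41 without replicate 1 of that group. Cth, which makes cysteine, was higher at VILI 0 hours (0.87) and lower at VILI 6 hours than at VILI 0 hours (−0.86, SE 0.19, adjusted p = 0.231). Among the genes of the list with a mean of at least 1 FPKM, Psph, of serine synthesis, was the lowest against control and was not called (−0.25 and −0.32). Below that mean, Pycr1, of proline synthesis, was lower still and not called (−0.65 and −0.73). Both were called at VILI 6 hours when replicate 1 was left out (−0.56 and −1.27), and neither when replicate 3 was left out instead (−0.31 and −0.31).

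A list of 13 genes held aminoacyl-tRNA synthetases known as ATF4 targets and Xpot, which encodes the tRNA export factor exportin-t. Of these, 0 were called directly after ventilation, beside 16.2% of all genes. After 6 hours, against control, 5 were higher and 1 lower, beside 8.17% of all genes higher and 20.4% called. Between the times 4 were higher and 0 lower, beside 5.06% of all genes higher. At VILI 0 hours Sars (0.28) was the highest and Iars (−0.27) the lowest. Cars, the cysteinyl-tRNA synthetase, was higher than at VILI 0 hours by 0.48 (SE 0.12, limma adjusted p = 0.279), and the highest against control was Wars (0.48) and the lowest Lars (−0.31). In the fit without VILI 6 hours replicate 1, 4 were higher and 1 lower at VILI 6 hours, beside 12.8% and 26% of all genes, and Wars was at 0.72 (adjusted p = 0.0124). When replicate 3 was left out instead, 3 were higher and 0 lower, beside 6.63% and 7.48% of all genes, and neither Wars (0.22) nor Lars (−0.22) was called. With median-centred libraries 8 were higher and 0 lower than in control at VILI 6 hours, beside 11.7% of all genes higher.

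Of 11 sensors and processing factors, 1 was lower at VILI 0 hours, and 1 was higher and 1 lower at VILI 6 hours, beside 16.2% and 20.4% of all genes called. Between the times 0 were called, beside 10%. Eif2ak2, the kinase PKR, was lower at VILI 0 hours (−0.27) and at VILI 6 hours (−0.25). Atf6 was higher at VILI 6 hours (0.27, limma adjusted p = 0.237), and 0.40 (adjusted p = 0.0126) without replicate 1. Without replicate 3 it was 0.18 and not called. The ligase gene Rtcb, which joins the Xbp1 exons after IRE1 has cut, was the highest at VILI 0 hours (0.16), and between the times Eif2ak4, the kinase GCN2, was the highest (0.20) and Eif2ak3, PERK, the lowest (−0.16), with none of them called. The lower Eif2ak2 was not called with median-centred libraries. A list of 11 genes held the subunits of eIF2 and of its exchange factor, the phosphatase subunit Ppp1r15b, the PERK inhibitor Dnajc3 and Eif2a, which encodes the separate initiation factor eIF2A. Eif2s1, the gene of eIF2α, was not called (−0.06 at VILI 0 hours and 0.17 at VILI 6 hours). Between the times Eif2s1 was the highest (0.23, not called), and it was called without VILI 6 hours replicate 1 (0.29) but not without replicate 3 (0.14). Eif2b3, of the exchange factor, was the lowest against control (−0.19 and −0.23, not called). Without VILI 6 hours replicate 1 it was called at VILI 6 hours (−0.47), and without replicate 3 it was 0.03 and not called. In each comparison 1 of the 11 was called, beside 16.2%, 20.4% and 10% of all genes. Eif2a was higher at VILI 0 hours (0.24) and lower at VILI 6 hours than at VILI 0 hours (−0.33, limma adjusted p = 0.325). Ppp1r15b, the constitutive counterpart of Ppp1r15a, was higher at VILI 6 hours than in control (0.37, and 0.47 without replicate 1). Of 6 genes of the mitochondrial unfolded protein response, 0 were called in any of the 3 comparisons, beside 16.2%, 20.4% and 10% of all genes, and the highest and lowest at VILI 6 hours were the chaperones Hspa9 (0.22) and Dnaja3 (−0.20). At VILI 0 hours they were the same genes (0.05 and −0.15), and between the times Hspa9 (0.17) and Hspd1 (−0.07). When VILI 6 hours replicate 1 was left out, 3 of the 6 were lower at VILI 6 hours, beside 26% of all genes. When replicate 3 was left out instead, 0 were higher and 0 lower, beside 6.63% and 7.48% of all genes.

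Of 16 ER chaperones and folding enzymes besides Hspa5, 0 were called at VILI 0 hours, and 1 higher (Dnajb11, 0.31) and 1 lower (Dnajc10, −0.26) at VILI 6 hours, beside 16.2% and 20.4% of all genes called at these times. Their median log2 fold changes from control were 0.07 and 0.01. At VILI 0 hours the nucleotide exchange factor Sil1 was the highest (0.18) and Dnajc10 the lowest (−0.16), and between the times Manf was the highest (0.21) and Sil1 the lowest (−0.26), with none of these called. Of the 16, 13 were highest of all 9 libraries in VILI 6 hours replicate 1, beside 21.8% of all genes, and 9 were lowest in replicate 3, beside 35.6%. The calreticulin gene Calr was at 253 FPKM in VILI 6 hours replicate 1, at 122 and 116 FPKM in the other VILI 6 hours mice and at 136 to 141 FPKM in control. Sdf2l1, an ER co-chaperone, was at 18.3 FPKM in replicate 1 and at 4.28 and 5.5 FPKM in the other two. Without replicate 1, 1 of the 16 was higher and 5 were lower at VILI 6 hours than in control, beside 12.8% and 26% of all genes, so that the share called was near that of all genes. Between the times 0 were higher and 7 lower, beside 8.55% and 13.9%. Those lower values rest on replicates 2 and 3, and when replicate 3 was left out instead, 1 was higher and 1 lower than in control and 0 were called between the times by limma. With median-centred libraries 2 of the 16 were higher and 0 lower at each time, beside 10% and 11.7% of all genes higher. Of 19 genes of ER-associated degradation and translocation, 0 were called at VILI 0 hours, beside 16.2% of all genes. At VILI 6 hours 2 were called, Ssr3 (0.23) and Selenos (0.21), both higher, beside 8.17% of all genes called higher and 20.4% called. Without replicate 1 of that group Selenos was not called (0.16), while Ube2j1 was higher (0.28) and Derl2 lower (−0.43, adjusted p = 0.0266). In that fit 2 of the 19 were higher and 1 lower, beside 12.8% and 26% of all genes. Among them 2, of which Derl2 was 1, had an adjusted p under 0.05, beside 23.3% of all genes. When replicate 3 was left out, Ssr3 was not called (0.17), and Sel1l (0.30) and Syvn1 (0.32) were higher. With median-centred libraries 8 of the 19 were higher at VILI 6 hours, beside 11.7% of all genes. Among those with a mean of at least 1 FPKM, Derl2 was the lowest of the list against control (−0.19 and −0.29, not called), and between the times Syvn1 was the highest (0.16) and Srp54a the lowest (−0.14).

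**Figure D4:**
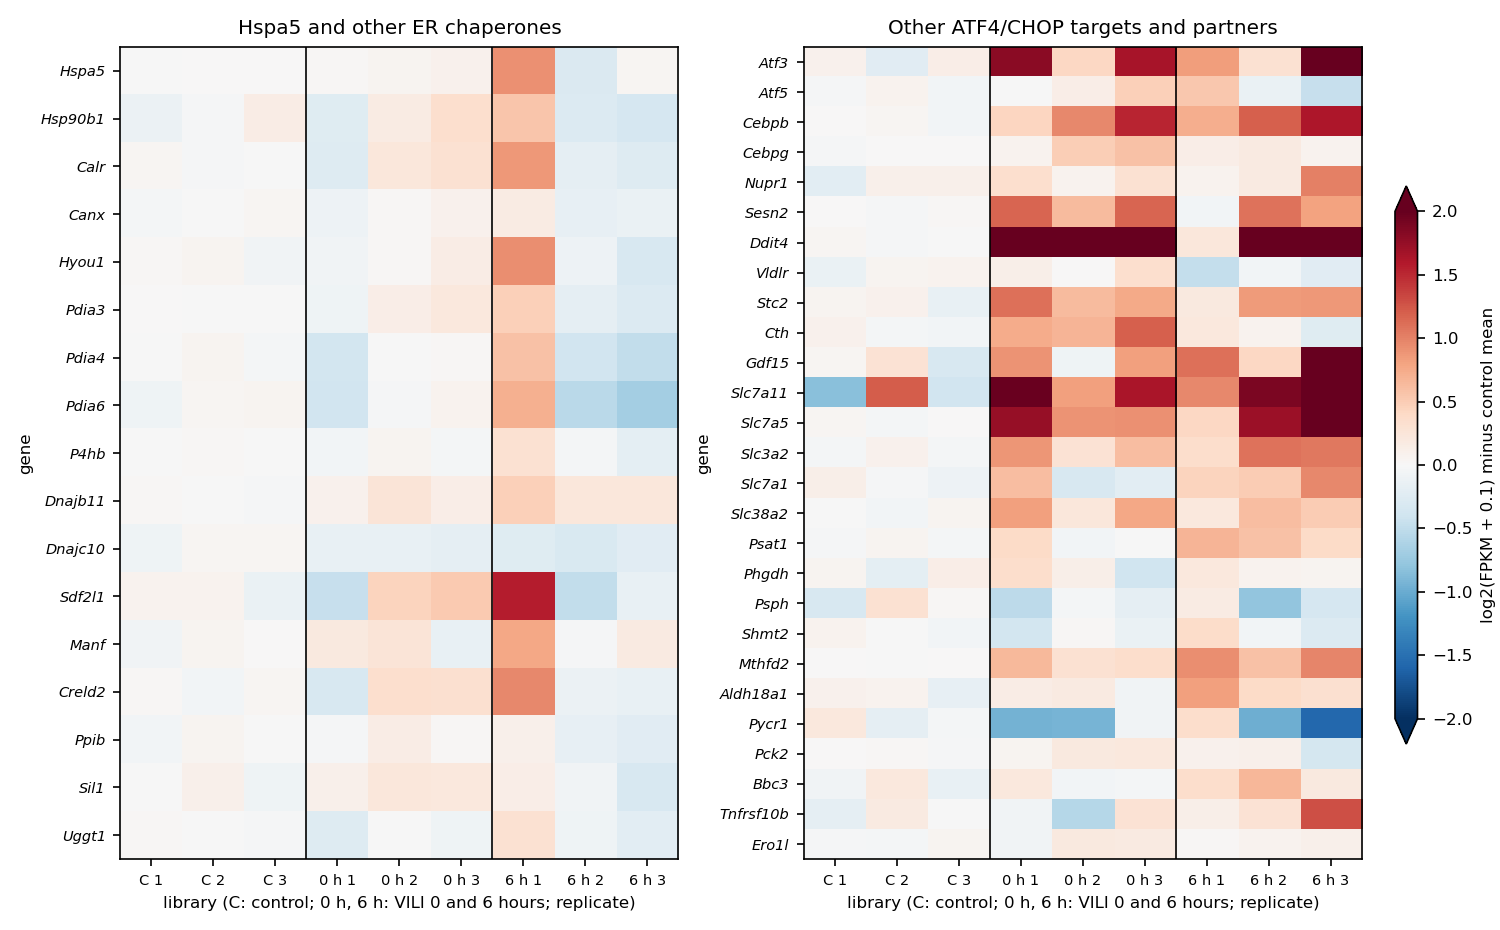
Each row is a gene and each column a library, colored by log2(FPKM + 0.1) minus the mean of the control libraries (scale ends at −2 and 2). The chaperones are red mainly in VILI 6 hours replicate 1, whereas Ddit4, Slc7a5 and Cebpb are red in most of the 6 ventilated libraries.

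VILI 6 hours replicate 1 held the extremes of some marker lists too. It was the lowest of the 9 libraries for all 5 erythroid markers and for all 5 plasma and B cell markers measured, beside 9.96% of all genes. Of 3 club and secretory cell markers 1, Scgb1a1, was highest there (39010 FPKM beside 22060 to 30540), beside 21.8% of all genes. Replicate 3 was highest for 4 of 5 neutrophil markers, beside 13.9% of all genes. The part of these cells in the chaperone levels of replicate 1 was not tested. In the promoter search, ERSE occurred in 5 of the 13 other chaperone genes with an entry (Calr, Canx, Creld2, Hsp90b1 and Pdia6) and in Derl3, Syvn1 and Dnajc3 of other lists. All 5 of these chaperones were highest in VILI 6 hours replicate 1, as were 13 of the whole list of 16, so that peak was not particular to genes with ERSE. CARE occurred in 6 of the 24 further ATF4 and CHOP targets with an entry (Atf3, Fgf21, Nupr1, Pycr1, Slc7a11 and Vldlr). UPRE occurred in Sec24d and Ube2j1 of the degradation list.

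Some markers of other cell types also moved with ventilation. All 5 neutrophil markers were higher at both times, and their summed level was 45.5 to 53.3 FPKM in control, 540 to 965 FPKM in VILI 0 hours and 446 to 1857 FPKM in VILI 6 hours. In whole lung, fewer cells of a type and less RNA per cell cannot be told apart. The summed level of the 5 erythroid markers was 3225 to 4182 FPKM in control, 4915 to 5419 FPKM in VILI 0 hours and 489 to 3867 FPKM in VILI 6 hours. At VILI 0 hours 0 of the 5 were called by limma with all libraries, beside 16.2% of all genes, and 5 were higher without VILI 6 hours replicate 1. In that fit 4493 of the 19378 genes were called, 38.75% of them higher. With all libraries 3 of the 5 were lower at VILI 6 hours than at VILI 0 hours, beside 10% of all genes called. Of the 4 alveolar type 1 markers Hopx (0.47) and Pdpn (0.57) were higher at VILI 0 hours, while Ager (0.13) and Aqp5 (−0.24) were not called, although all 3 VILI 0 hours mice lay below control for Aqp5. At VILI 6 hours 2 of the 4 were higher and 0 lower, and without replicate 1 of that group 1 was higher and 1 lower. Of 3 club and secretory cell markers 1 was higher at VILI 0 hours. Over all genes, 6.81% were called higher at VILI 0 hours and 8.17% at VILI 6 hours. Of 4 alveolar macrophage markers Mrc1 (0.46) and Ear2 (0.48) were higher at VILI 0 hours. Of 6 alveolar type 2 markers Sftpa1 was higher at VILI 0 hours (0.28) and Lamp3 lower at VILI 6 hours (−0.31). Of 4 fibroblast markers Dcn was higher (0.39) and Col1a2 lower (−0.39) at VILI 0 hours. Of 4 endothelial markers Tie1 was lower at VILI 6 hours (−0.58), while Pecam1 (0.03), Cdh5 (0.15) and Cldn5 (0.32) were not called with all libraries and were called higher without replicate 1 (0.21, 0.37 and 0.41). The summed level of the 5 plasma and B cell markers was 51.9 to 69.8 FPKM in control, 27.6 to 62.3 FPKM in VILI 0 hours and 16.8 to 40.7 FPKM in VILI 6 hours. The B cell genes Ms4a1 (−1.86) and Cd79b (−1.12) were lower at VILI 6 hours, and without replicate 1 Ms4a1 alone was called. The plasma cell genes Jchain (−0.48) and Mzb1 (−0.64) were not called there. The part of these cells in the levels of the 10 genes was not tested.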

How the data were processed

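Lung RNA of 9 mice was sequenced after rRNA depletion. The library kit and sequencer named in the sample records differ from those of the study's methods. Per the labels and the study's methods, the authors cleaned the reads of adapters and poor bases, mapped them to GRCm38 with TopHat 2.0.9 on Bowtie2 2.0.6, built transcripts with Scripture and Cufflinks and obtained with Cuffdiff 2.1.1 the deposited FPKM values per transcript and library; the strand setting was not given in the sources used here. Groups came from the sample records. Of 23713 Ensembl gene IDs, 23503 matched GENCODE M21, and rows were summed per gene.

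The limma 3.58.1 test (R 4.3.3; eBayes with a trend) was run on log2(FPKM + 0.1) with group as the only factor and all 9 libraries, over genes or rows with a mean of at least 0.1 FPKM, and was tested on simulated data. Benjamini-Hochberg adjustment ran over all genes (19378) or rows (37300). The 10 members and the pathway and marker lists were chosen with earlier results of these data known, so their counts are descriptions. Genes named were all members, per pathway list the highest and lowest per comparison at a mean of at least 1 FPKM and any with an adjusted p under 0.05, and the 5 genes most correlated with Hspa5 and Ddit3; Slc7a5, Cebpb, Calr, Sdf2l1, Scgb1a1, Pycr1, Eif2s1, the markers named and lists of called genes of 5 or fewer were chosen after their values were seen. Alternatives were pseudocounts of 0.01 and 1, a mean of at least 1 FPKM, no filter, median-centring, only the 6 libraries compared, a replicate block, no trend, the most abundant row and each library left out; list counts without VILI 6 hours replicate 1 or 3 or median-centred were added after seeing the data. Promoters were those of RefSeq (GRCm38.p6), read with Python 3.11.15.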

Additional observations from a re-analysis of the deposited data

Results flagged for a closer look

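The following members differed between VILI 6 hours and VILI 0 hours by limma's unadjusted P under 0.05, a test of the difference between the times themselves. The log2 differences, VILI 6 hours minus VILI 0 hours, were 0.49 for Xbp1, 0.44 for Asns and −0.33 for Dnajb9, and Dnajb9 was −0.33 in its only row as well. By row they were 0.58 and 0.51 for the first and second Xbp1 rows, 0.63 for the first Hspa5 row and −4.13 for the second Ddit3 row, which was listed at 0 at VILI 6 hours, so that its value is set by the pseudocount and is no bound. The second Ddit3 row was the only one of them with an adjusted p under 0.05 (0.00403). The first Hspa5 row lost its call without VILI 6 hours replicate 1. Groups of 3 are too small for a test of single outlying samples.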

How the results depend on the processing

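Of the log2 fold changes of members recomputed without leaving out a library, 257 kept direction and call, 8 lost and 3 gained the call, and 2 reversed, Dnajb9 in VILI 6 hours vs control with median-centred libraries (0.10) and Ddit3 between the times in its most abundant row (0.025). With 1 library left out, 229 kept both, 20 lost and 7 gained the call and 14 reversed. The reversed ones ranged, in VILI 0 hours vs control, from −0.006 to 0.16 for Xbp1; in VILI 6 hours vs control, from −0.75 to 0.057 for Chac1, −0.13 to 0.47 for Hspa5 and −0.062 to 0.027 for Dnajb9; and between the times, from −0.093 to 0.087 for Atf4, −0.58 to 0.22 for Chac1, −0.54 to 0.16 for Ppp1r15a, −0.18 to 0.42 for Hspa5 and −0.53 to 0.16 for Herpud1. The cause was not tested.

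With 1 library left out, members called numbered 2 (without VILI 0 hours replicate 1) to 5, 3 to 7 and 2 to 3 in the 3 comparisons, and their rows 2 to 7, 3 to 9 and 4 to 6. Over all genes, calls numbered 1979 to 4493, 2543 to 7526 and 1407 to 4350, and adjusted calls 1 to 1343, 0 to 4512 and 0 to 356, in each case highest without VILI 6 hours replicate 1. The lowest calls over all genes came without control replicate 2 against control and without VILI 0 hours replicate 3 between the times. Without control replicate 3, or without VILI 0 hours replicate 2, 1 adjusted call was left at VILI 0 hours against control. With only the 6 libraries compared, 5094 genes were called and 1597 after adjustment in VILI 0 hours vs control, 36 after adjustment in VILI 6 hours vs control, and 1210 and 1 between the times. In that fit 8 member rows were called in VILI 0 hours vs control, given here without the share of all rows. Against control, adjusted calls at VILI 0 hours and at VILI 6 hours were 1 and 75 without a filter, 20 and 41 without a trend, and 7 and 11 in the most abundant row, and 15 in the first with a pseudocount of 1. Without a trend 2 genes were called between the times after adjustment and 2 member rows in VILI 0 hours vs control, again without the share of all rows. By the most abundant row 2 members were called in VILI 6 hours vs control, beside 3427 genes in all. Median-centring raised the higher share of all calls from 42.1% to 61.2% and from 40.1% to 58.1% against control.

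Replicate numbers did not pair the mice: deviations of same-numbered mice correlated at −0.22 to 0.02. With a replicate block, adjusted calls over all genes were 10 and 43, and Ppp1r15a was called in VILI 6 hours vs control (0.73). The table gives no read counts. The paper's supplement lists mapped reads per library, but the counting error of low values was not estimated here.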
